A study of Mus musculus with 4 samples.

Results

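Translation initiation factors are the proteins that bring the small ribosomal subunit, the initiator tRNA and the capped end of an mRNA together and let the large subunit join at the start codon. Their genes were taken as all probe sets of the array with a single gene symbol that begins with Eif and a digit, without the Eif2ak genes, which encode kinases of eIF2. The rule gave 43 genes of the 18193 named on the array, measured by 120 probe sets, and each gene was represented by its probe set with the highest mean log2(signal + 16) over the 4 arrays. Of these genes 41 passed the filter on low signals. The other 2, Eif2s3y and Eif4a3, did not. Eif1, Eif2s1, Eif3g and Eif4g1 were among the factors with no probe set under the rule, so their complexes are covered only in part.

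The study measured total RNA of granulocytic myeloid-derived suppressor cells (G-MDSC, 2 samples) and of neutrophils (2 samples), all from female C57BL/6 mice, on Affymetrix Mouse 430 2.0 arrays. G-MDSC, described as CD11b+Ly6G+Ly6Clow granulocytic cells that build up in mice with tumours, came from the spleen 3.5 weeks after EL4 lymphoma cells had been injected under the skin, and were selected for Ly6G with microbeads. Neutrophils were washed from the peritoneum of mice given 2 injections of 1.5 ml of 12% casein, 16 h apart, and killed 3 h after the last. F4/80-positive cells were first removed from the lavage, and Ly6G-positive ones were then kept. Cell kind, tissue, tumour, casein and sorting steps went together in every array and cannot be told apart. Whether replicates were separate mice is not given, and p-values therefore cover only the spread between these arrays, which may be technical.

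Initiation starts with a ternary complex of eIF2, GTP and the initiator tRNA, which eIF2B recharges by exchanging GDP for GTP. The small subunit carrying eIF1, eIF1A, eIF3 and that complex is led to the mRNA by eIF4F, made of the cap-binding protein eIF4E, the helicase eIF4A and the scaffold eIF4G. Small inhibitors, the 4E-binding proteins, compete with eIF4G for eIF4E, and the kinase mTOR releases that brake. Neutrophils leave the marrow with much of their protein already made, but activated neutrophils still translate cytokine mRNAs, a step set in part by eIF4E.

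Granulocyte genes were bright in all arrays: all 7 markers of mature granulocytes lay above the 40th percentile of each array, and their summed signal was 188911 and 229205 in G-MDSC arrays and 194424 and 247730 in neutrophil arrays. The second neutrophil array was the odd one, since 40% of its probe sets were below 132.7, a level of 45.7 to 52.6 for the other 3 arrays. Markers of other cell types differed between the groups. By limma's test 9 of 12 macrophage markers were lower in G-MDSC and 0 higher, with summed signals of 16991 and 17024 in G-MDSC arrays against 44296 and 64422 in neutrophil arrays, and none of the 12 was below the 40th percentile in both arrays of a group. Of 7 mast cell markers 5 were lower in G-MDSC, where Cma1, Mcpt4 and Tpsb2 were below that percentile in both arrays. The summed signal was 17908 and 21638 in G-MDSC arrays and 40404 and 30095 in neutrophil arrays. Most of the G-MDSC sum came from Hdc, at 15256 and 18052 there against 24350 and 24016 in neutrophil arrays. Kit had 2003 and 3146 in G-MDSC arrays against 1551 and 417 in neutrophil arrays, and neither Hdc nor Kit passed the test. All 5 granulocyte precursor markers tested were higher in G-MDSC, with summed signals of 29562 and 13228 in G-MDSC arrays against 1146 and 789 in neutrophil arrays. Of 7 B cell and antibody-secreting cell markers tested, Jchain and Igha were higher in G-MDSC, by 4.49 and 4 on the log2 scale, and 0 were lower. The list's summed signal was 22284 and 15983 in G-MDSC arrays, against 7611 and 9969 in neutrophil arrays. The part of these cells in the differences below was not tested. In such bulk samples, fewer cells of a type and less RNA per cell cannot be told apart.

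Among the initiation factor transcripts, those of a pair of proteins that bind and restrain eIF4E were called higher in G-MDSC. Those of the cap-binding protein itself, a helicase, eIF1A and subunits of eIF3 and eIF2B were called lower. Protein was not measured. None of these calls held with each array centred on its median or without limma's intensity trend, as given below. Differences are G-MDSC minus neutrophils on the log2(signal + 16) scale, tested with limma over all 13139 genes with Benjamini-Hochberg adjustment and a threshold of 0.05. Of the 41 members tested, 2 were higher in G-MDSC, Eif4ebp2 and Eif4enif1, or 4.88%, where 8.3% of all genes were called higher. Another 6 were lower, Eif3b, Eif2b3, Eif3i, Eif4e, Eif1ax and Eif4a1, or 14.6%, where 8.05% of all genes were called lower. With 16.4% of all genes called in either direction, 8 calls among 41 members are close to the background, and the count alone is no result about them. The median member differed by -0.27, or -0.09 relative to the median gene, which itself differed by -0.18. The members spread less than genes in general, with an interquartile range of 1.04 against 1.3 for all genes tested. Within 1 log2 unit of the median gene lay 78% of the members, against 70% of all genes. The spread was not compared with genes of equal brightness, and the median member was at 11.26 to 11.54 over the arrays on that scale.

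**Figure D1:**
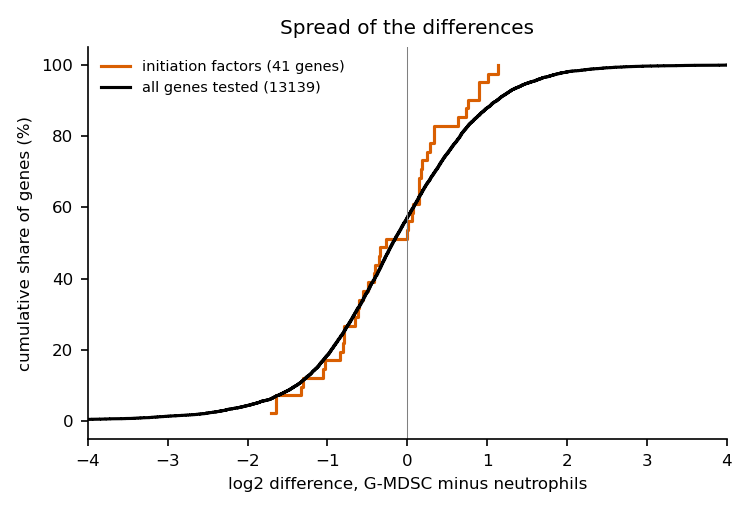
Cumulative share of genes (vertical axis, in percent) by log2 difference of G-MDSC minus neutrophils (horizontal axis), for the 41 initiation factor genes tested and for all 13139 genes. The curves run close together near their middle, with medians of -0.27 and -0.18, and the initiation factors end at -1.71 and 1.13, inside the tails of all genes.

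The 2 arrays of G-MDSC lay outside the range of the 2 arrays of neutrophils for 29 members, 10 of them higher and 19 lower in G-MDSC. Over all genes tested this held for 59.5%, with 27.3% higher and 32.2% lower. All 8 members past the threshold were among these 29, as the plot of their signals shows. With each array centred on its median 0 members passed, and 4 had an unadjusted p under 0.05, as had 3217 of all 13139 genes. The split over all genes was then 1076 higher and 453 lower, where it had been 1091 higher and 1058 lower. Without limma's intensity trend 0 members passed as well, and 10 had an unadjusted p under 0.05, as had 3403 of all 13139 genes. With quantile normalization Eif4e (limma adjusted p = 0.074), Eif4enif1 (0.101) and Eif2b3 (0.0701) did not pass, while the other 5 did. Leaving out an array makes a group of 1, which is then assumed to vary like the other group, so these fits say little about stability. All 8 calls were lost when G-MDSC replicate 2 was left out, where 0 members were called, and 3 remained without G-MDSC replicate 1. All 8 remained called without neutrophils replicate 1, with 7 members higher and 15 lower in all, and 6 remained without neutrophils replicate 2, with 3 higher and 5 lower.

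**Figure D2:**
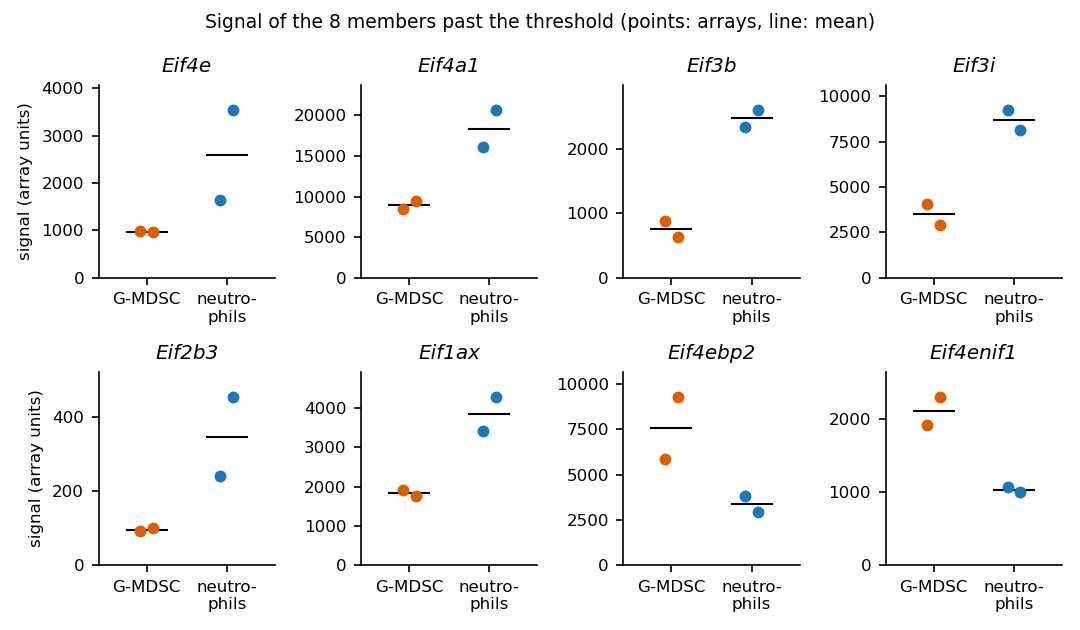
Signal in array units (vertical axes, starting at 0) of the 8 members past limma's threshold in the 2 G-MDSC arrays and the 2 neutrophil arrays, with a point per array and a line at the group mean. Both G-MDSC points lie below both neutrophil points for Eif4e, Eif4a1, Eif3b, Eif3i, Eif2b3 and Eif1ax, and above them for Eif4ebp2 and Eif4enif1.

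The cap-binding step showed differences in opposite directions. Eif4e, which encodes the protein that binds the mRNA cap, had signals of 977 and 956 in G-MDSC arrays, against 1645 and 3545 in neutrophil arrays. The G-MDSC arrays were nearly equal, while neutrophils replicate 2 was far above neutrophils replicate 1. The log2 difference was -1.31 ± 0.38 (SE, 2 arrays per group; limma adjusted p = 0.0368). Without neutrophils replicate 2 it was -0.76 and did not pass (limma adjusted p = 0.0804). All 4 probe sets of Eif4e were lower in G-MDSC, with differences of -1.98 to -1.21. The dimmest set, at -1.21, had 44.7 and 84.4 in G-MDSC arrays and 169 and 159 in neutrophil arrays. The 40th percentiles of these arrays were 45.7, 52.6, 51.4 and 132.7, in that order. The relatives of Eif4e that were tested did not pass. Eif4e2, a cap-binding protein that mostly represses translation, had 1780 and 2312 in G-MDSC arrays and 1420 and 2290 in neutrophil arrays, and its groups overlapped (difference 0.17 ± 0.34). The 5 kept probe sets of Eif4e2 ran from -0.88 to 0.28, and the median over them differed by -0.15. Eif4e3, another cap-binding family member, had 2160 and 957 in G-MDSC arrays against 772 and 752 in neutrophil arrays, with a difference of 0.90 ± 0.39 that did not pass (limma adjusted p = 0.15).

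The binders of eIF4E were all on the other side. Eif4ebp2, a 4E-binding protein that blocks eIF4F assembly, had signals of 5843 and 9299 in G-MDSC arrays, against 3813 and 2955 in neutrophil arrays. It was higher in G-MDSC by 1.13 ± 0.33 on the log2 scale, a fold of 2.19 (SE, 2 arrays per group; limma adjusted p = 0.0385). All 4 kept probe sets were higher, by 0.61 to 1.13, though the median over them did not pass the test (0.84; limma adjusted p = 0.117). Eif4enif1, known as 4E-T, carries eIF4E into the nucleus and into bodies where mRNAs are stored or decayed. Its signals were 1908 and 2296 in G-MDSC arrays, against 1060 and 998 in neutrophil arrays, and it was higher by 1.01 ± 0.31, a fold of 2.02 (limma adjusted p = 0.0437), on its only probe set. Eif4ebp1, the best known mTOR target of this family, had 11695 and 11948 in G-MDSC arrays against 9400 and 5397 in neutrophil arrays. The groups did not overlap, but the difference of 0.73 ± 0.34 missed the threshold (limma adjusted p = 0.174). This probe set carries the suffix that Affymetrix gives to sets with probes that can match other transcripts. The other 2 sets of Eif4ebp1 differed by 0.95 and -0.28. The median of the 3 genes lay 1.2 above that of all genes.

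The contrasts of Eif4e with its binders follow from these separate values. Both G-MDSC arrays were below both neutrophil arrays for Eif4e and above them for its binders, so each contrast was negative by construction. The log2 difference of Eif4e minus that of Eif4ebp2 was -2.44, and ran from -3.52 to -1.36 over the 4 pairings of a G-MDSC array with a neutrophil array. Against Eif4enif1 it was -2.32, from -3.06 to -1.58, and against Eif4ebp1 -2.04, from -3.02 to -1.06. With 2 arrays per group an exact permutation test cannot give a two-sided p below 0.33, so these contrasts are given without one.

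**Figure D3:**
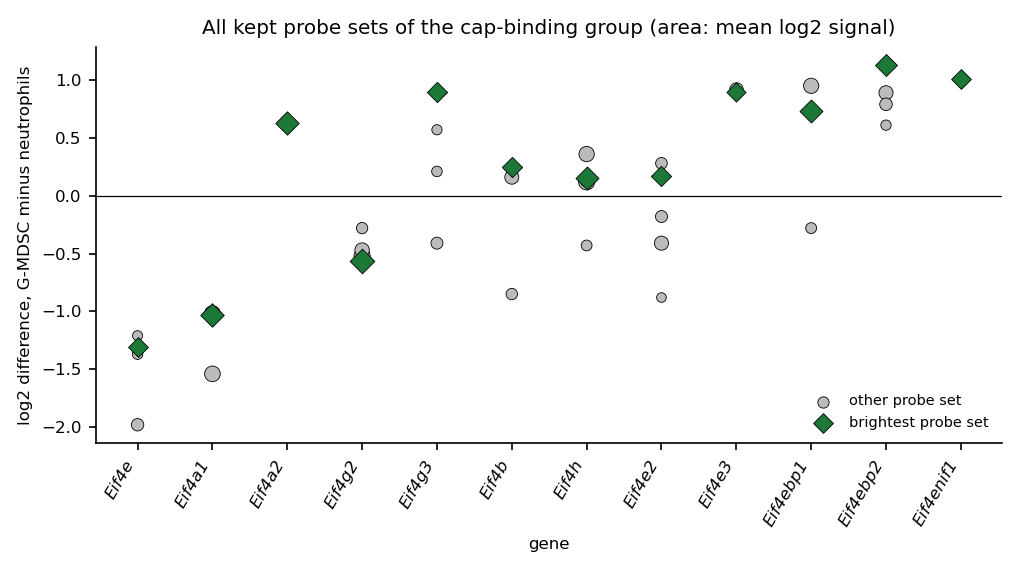
Log2 difference of G-MDSC minus neutrophils (vertical axis) for every kept probe set of 12 genes of the cap-binding step, with the brightest probe set of each gene as a diamond, the others as circles and symbol area growing with the mean log2 signal. All sets of Eif4e and Eif4a1 lie below -1, all sets of Eif4ebp2 lie above 0.6, and the sets of Eif4e2 and Eif4g3 lie on both sides of 0.

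Among the other eIF4F subunits and their relatives that were tested, only Eif4a1 passed. The scaffold gene Eif4g1 had no probe set under the rule. Eif4a1, the main eIF4A helicase, had 8458 and 9457 in G-MDSC arrays, against 16050 and 20686 in neutrophil arrays. It was lower, with a log2 difference of -1.03 ± 0.30 (SE, 2 arrays per group; limma adjusted p = 0.0411), and its 3 probe sets differed by -1.54 to -1.02. The median over those sets was -1.04 and just missed the threshold (limma adjusted p = 0.0525). Eif4a2, the second helicase, which in mammalian cells has also been tied to repression by microRNAs, had 14418 and 14305 in G-MDSC arrays against 10320 and 8374 in neutrophil arrays. Both G-MDSC arrays were above both neutrophil arrays, but its difference of 0.63 ± 0.30 did not pass (limma adjusted p = 0.188). The difference of Eif4a1 minus that of Eif4a2 was -1.65, from -2.07 to -1.23 over the 4 array pairings. As the groups were apart in opposite directions for these genes, every pairing was negative by construction.

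Eif4g2, or DAP5, a scaffold that lacks the site for eIF4E, had the probe set with the highest signals of the eIF4F group. These were 22609 and 21384 in G-MDSC arrays against 28833 and 36462 in neutrophil arrays (difference -0.56 ± 0.31; limma adjusted p = 0.256). Eif4g3, which encodes an eIF4G scaffold with that site, had 2716 and 2605 in G-MDSC arrays against 1651 and 1218 in neutrophil arrays (0.90 ± 0.31; limma adjusted p = 0.072). Neither passed the test, while for each gene the groups were apart, in opposite directions. The difference of Eif4g2 minus that of Eif4g3 was -1.46, from -1.86 to -1.06, and was likewise negative by construction. The helicase helpers Eif4b and Eif4h differed by 0.25 ± 0.38 and 0.15 ± 0.29. Over the 9 genes of the group that were tested, 2 were lower, or 22.2% against 8.05% of all genes, and 0 were higher. The median was 0.17, which is 0.35 above that of all genes. That relative median was 0.07 with quantile normalization, 0.12 with the filter at the 60th percentile and 0.16 without neutrophils replicate 2. Eif4a3, a relative of eIF4A in the exon junction complex, has one probe set of its own here, with signals of 8.56 and 11.5 in G-MDSC arrays and 12 and 21.8 in neutrophil arrays, all below the 40th percentile of their arrays.

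The bases before the RefSeq start sites of 4 of these genes are shown because Eif4e and Eif4a1 were lower and Eif4ebp2 higher in G-MDSC, with Eif4a2, which did not pass, as the paralogue of Eif4a1. Capitals mark CACGTG, the E-box that MYC and related factors can bind. Each stretch is the 250 bases before the start, 5′ to 3′ on the gene's strand, in build GRCm38.p6.
Eif4e, chr3:138527018-138527267, plus strand, the second of its 2 listed starts: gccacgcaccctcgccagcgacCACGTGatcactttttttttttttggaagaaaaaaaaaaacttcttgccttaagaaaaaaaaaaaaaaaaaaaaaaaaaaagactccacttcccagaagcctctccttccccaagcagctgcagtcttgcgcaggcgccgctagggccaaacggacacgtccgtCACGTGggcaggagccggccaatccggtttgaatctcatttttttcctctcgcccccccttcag
Eif4a1, chr11:69672424-69672673, minus strand: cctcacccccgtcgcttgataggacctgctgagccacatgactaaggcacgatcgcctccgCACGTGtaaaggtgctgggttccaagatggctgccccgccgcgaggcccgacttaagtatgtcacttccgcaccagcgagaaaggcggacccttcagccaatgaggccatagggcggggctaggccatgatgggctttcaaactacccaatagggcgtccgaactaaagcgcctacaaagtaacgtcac
Eif4a2, chr16:23107218-23107467, plus strand: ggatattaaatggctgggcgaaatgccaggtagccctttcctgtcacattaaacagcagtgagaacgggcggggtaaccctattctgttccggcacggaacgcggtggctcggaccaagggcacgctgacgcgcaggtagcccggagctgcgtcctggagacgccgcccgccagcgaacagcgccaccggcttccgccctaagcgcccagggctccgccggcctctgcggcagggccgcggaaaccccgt
Eif4ebp2, chr10:61452670-61452919, minus strand: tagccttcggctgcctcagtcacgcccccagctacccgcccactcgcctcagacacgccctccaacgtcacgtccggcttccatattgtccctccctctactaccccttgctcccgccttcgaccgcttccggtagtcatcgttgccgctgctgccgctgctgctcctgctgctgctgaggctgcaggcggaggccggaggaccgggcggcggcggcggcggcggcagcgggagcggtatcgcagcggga

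Eif4e, lower in G-MDSC, had 2 such matches, at -228 and -64 counted from the start site. Eif4a1, also lower, had 1 at -189. The upstream bases of Eif4a2 and Eif4ebp2 held 0. Promoter windows of 300 bases, 250 before and 50 after a start, were found for 34 of the 43 members in RefSeq's table, and a gene was counted if any of its windows held the letters, which read the same on both strands. CACGTG was in 9 of the 34 members, 26.5%, and in 8.1% of all 27025 genes with a window. It was in 2 of the 4 members lower in G-MDSC, 0 of the 2 higher and 7 of the 26 that did not pass, so it was not limited to those that differed. The longer letters CCGGAAGT, read on either strand and bound by ETS factors, were in 7 of the 34 members, 20.6%, against 4.3% of all genes with a window, and all 7 were members that did not pass. The members' upstream bases were richer in G and C, with a median of 62.4% against 52.4% for all genes, and these matches are a description of the letters and not of binding.

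The largest initiation factor is eIF3, the platform on which the small subunit meets eIF4F. Its transcripts included those of a pair of partner subunits that were lower in G-MDSC. Of 11 measured, 2 passed the test as lower and 0 as higher. Lower calls were thus 18.2% of eIF3 genes against 8.05% of all genes. For 8 of the 11 both G-MDSC arrays were below both neutrophil arrays, which held for 32.2% of all genes. The median difference was -0.62, or -0.44 relative to all genes, and this relative median was -0.14 with the median of probe sets and -0.79 with quantile normalization. Eif3b, a scaffold subunit that holds eIF3i and eIF3g, had 877 and 624 in G-MDSC arrays, against 2330 and 2602 in neutrophil arrays. With a difference of -1.71 ± 0.32 (SE, 2 arrays per group; limma adjusted p = 0.0045), or 3.28-fold lower, it was the member with the lowest adjusted p. Eif3i, its small partner, had 4082 and 2902 in G-MDSC arrays, against 9266 and 8146 in neutrophil arrays, a difference of -1.33 ± 0.31 (limma adjusted p = 0.0136). The other probe set of Eif3i differed by -1.24.

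In several other eIF3 genes, none past the threshold, neutrophils replicate 2 lay above the other 3 arrays. Eif3e had 3512 and 4387 in G-MDSC arrays against 4676 and 9943 in neutrophil arrays (-0.79 ± 0.38; limma adjusted p = 0.184). Eif3m had 614 and 710 in G-MDSC arrays against 722 and 1450 in neutrophil arrays (-0.62 ± 0.38; limma adjusted p = 0.304). Eif3l had 1583 and 1383 in G-MDSC arrays against 1908 and 2891 in neutrophil arrays (-0.66 ± 0.32; limma adjusted p = 0.2). In these 3 genes the neutrophil arrays were further from each other than neutrophils replicate 1 was from the nearer G-MDSC array.

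Eif3d, a subunit with cap-binding activity of its own, had 1696 and 1448 in G-MDSC arrays against 2692 and 2961 in neutrophil arrays, and its difference of -0.84 ± 0.30 did not pass (limma adjusted p = 0.0807). Eif3a and Eif3c, large core subunits, differed by -0.27 ± 0.29 and -0.49 ± 0.31, and by 0.28 and 0.07 with each array centred on its median. At the other end were Eif3f, Eif3k and Eif3h. Eif3f, whose probe set was the brightest of eIF3, had 12775 and 13381 in G-MDSC arrays against 10320 and 10354 in neutrophil arrays (0.34 ± 0.29; limma adjusted p = 0.473). Eif3k and Eif3h differed by 0.07 ± 0.29 and 0.01 ± 0.37, and their groups overlapped.

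**Figure D4:**
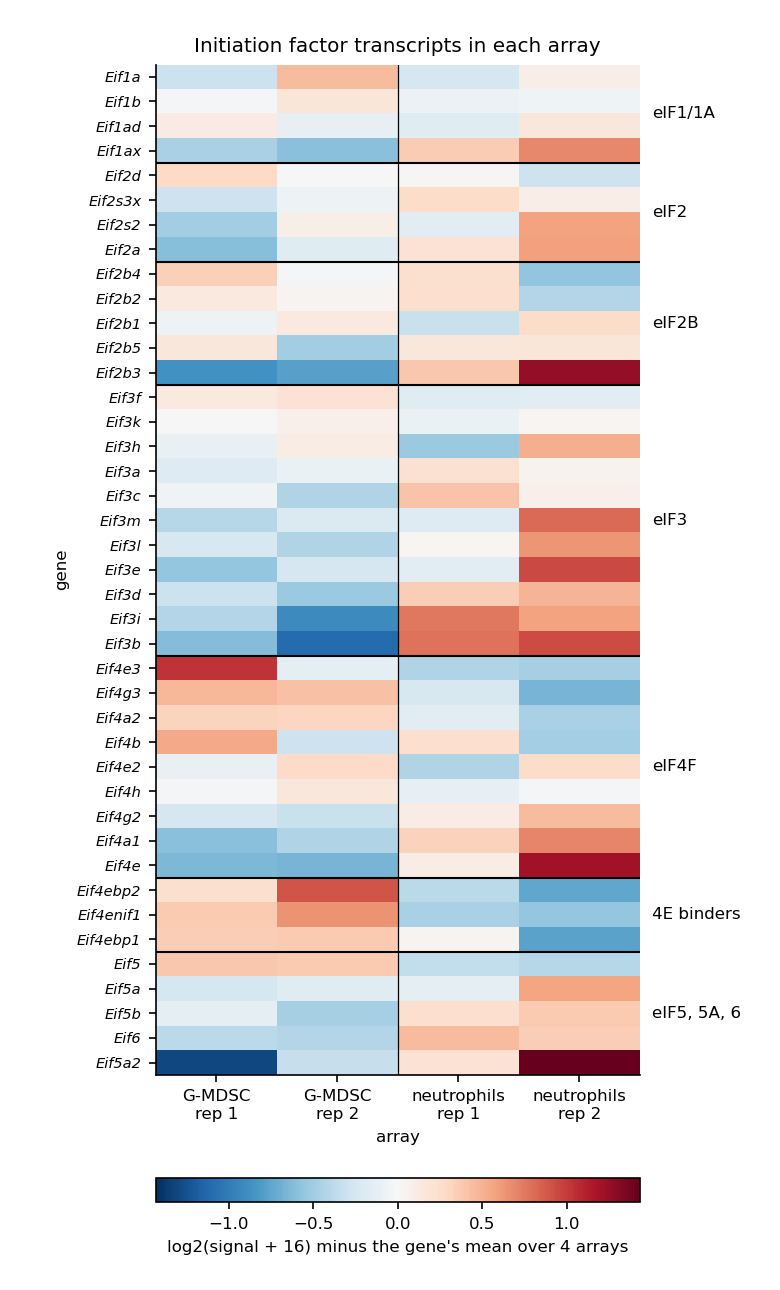
Heat map of log2(signal + 16) minus the gene's mean over the 4 arrays for the 41 tested members (rows, grouped by factor complex) in the 2 G-MDSC and 2 neutrophil arrays (columns). Red marks values above and blue values below the gene's mean, and Eif3b, Eif3i, Eif4a1, Eif4e and Eif2b3 are blue in both G-MDSC arrays while Eif4ebp1, Eif4ebp2, Eif4enif1 and Eif5 are red there.

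Of the 5 subunits of eIF2B, the exchange factor that recharges eIF2, only Eif2b3 passed the test. Lower calls were thus 20% of the complex, where 8.05% of all genes were called lower. Eif2b3, which encodes the gamma subunit of the catalytic part, had 91.3 and 98.6 in G-MDSC arrays, against 239 and 453 in neutrophil arrays. It was lower, with a log2 difference of -1.64 ± 0.48 (SE, 2 arrays per group; limma adjusted p = 0.0378), on a single probe set, and it was the only member besides Eif4e whose call was lost without neutrophils replicate 2 (-1.20; limma adjusted p = 0.053). Its partner Eif2b5, the catalytic epsilon subunit, had 628 and 394 in G-MDSC arrays and 628 and 636 in neutrophil arrays, a difference of -0.34 ± 0.35 (limma adjusted p = 0.563). A dimmer probe set of Eif2b5 differed by -2.28.

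The regulatory subunits of eIF2B, which sense phosphorylated eIF2, had overlapping groups. Eif2b1 had 257 and 301 in G-MDSC arrays and 215 and 329 in neutrophil arrays (0.06 ± 0.40). Eif2b2 had 2602 and 2440 in G-MDSC arrays and 2789 and 1767 in neutrophil arrays (0.18 ± 0.32), and its 3 probe sets ran from -0.25 to 0.75. Eif2b4 had 933 and 726 in G-MDSC arrays and 862 and 490 in neutrophil arrays (0.33 ± 0.37). The median of the complex was 0.06, or 0.24 relative to all genes, and that relative median was -0.01 with quantile normalization.

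None of the 4 tested genes of eIF2 and other carriers of the initiator tRNA passed the test. Eif2s1, of the same group, had no probe set under the rule. Of the tested genes 1 had an unadjusted limma p under 0.05, as had 3890 of all 13139 genes. Eif2s2 and Eif2s3x turned above 0 with each array centred on its median. Eif2s2, the beta subunit of eIF2, had 3940 and 5913 in G-MDSC arrays and 4967 and 8338 in neutrophil arrays (-0.41 ± 0.35; limma adjusted p = 0.465). Eif2s3x, the X-linked gamma subunit, had 3735 and 4355 in G-MDSC arrays against 5498 and 4895 in neutrophil arrays (-0.36 ± 0.30; limma adjusted p = 0.446), with all 3 probe sets lower. Its Y-linked copy Eif2s3y had 6.26 and 4.18 in G-MDSC arrays and 13.2 and 21 in neutrophil arrays, all below the 40th percentile of their arrays, which matches the label that the mice were female. Eif2a, a separate protein that can also deliver initiator tRNA, had 289 and 396 in G-MDSC arrays against 522 and 683 in neutrophil arrays, and its difference of -0.79 ± 0.36 did not pass (limma adjusted p = 0.166). Eif2d, which acts in reinitiation and recycling, differed by 0.29 ± 0.34.

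Among the factors that guide scanning to the start codon, Eif1ax was lower in G-MDSC. It encodes eIF1A from the X chromosome and had 1920 and 1750 in G-MDSC arrays, against 3430 and 4288 in neutrophil arrays. The difference was -1.06 ± 0.30 (SE, 2 arrays per group; limma adjusted p = 0.0341), or 2.08-fold lower. Of its 3 probe sets 2 were lower and the dimmest differed by 0.06, and the median over them did not pass (-1.01; limma adjusted p = 0.2). The relative Eif1a had 1095 and 1858 in G-MDSC arrays and 1144 and 1449 in neutrophil arrays (0.15 ± 0.35), so its groups overlapped. The difference of Eif1ax minus that of Eif1a was -1.20, from -1.66 to -0.75 over the array pairings. Eif1b, a paralogue of eIF1, had 2631 and 3002 in G-MDSC arrays and 2527 and 2549 in neutrophil arrays (0.15 ± 0.29; limma adjusted p = 0.77). Eif1ad, a protein with an eIF1A domain, differed by 0 ± 0.33.

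None of the 5 genes for the last steps passed the test, with 1 higher and 2 lower at an unadjusted limma p under 0.05. Over all 13139 genes 1975 were higher and 1915 lower at that p. Eif5, which triggers GTP hydrolysis by eIF2 at the start codon, had nearly equal replicates, 12625 and 12459 in G-MDSC arrays against 7519 and 7271 in neutrophil arrays. Its difference was 0.76 ± 0.29 (SE, 2 arrays per group; limma adjusted p = 0.104), and all 5 of its probe sets were higher, by 0.44 to 0.96. Eif6, which keeps free large subunits from joining small ones, had 2544 and 2475 in G-MDSC arrays against 4565 and 4264 in neutrophil arrays, a difference of -0.81 ± 0.29 (limma adjusted p = 0.0839). For both genes limma's standard error, which borrows from other genes, was wider than the spread of their own replicates, with SDs of 0.01 and 0.03 for Eif5 and 0.03 and 0.07 for Eif6 on the log2 scale. Both genes passed with quantile normalization.

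Eif5a, the hypusine-bearing factor that helps ribosomes through difficult stretches, had the highest signals of this group at 24699 and 26072 in G-MDSC arrays against 26610 and 43451 in neutrophil arrays (-0.42 ± 0.34; limma adjusted p = 0.435). Its paralogue Eif5a2 was dim, at 29.4 and 72.9 in G-MDSC arrays against 113 and 286 in neutrophil arrays, and its difference of -1.64 ± 0.70 did not pass (limma adjusted p = 0.143). Eif5b, the GTPase that joins the subunits, had 474 and 374 in G-MDSC arrays against 622 and 685 in neutrophil arrays (-0.61 ± 0.34; limma adjusted p = 0.254). The 5 genes had a median of -0.61, or -0.43 relative to all genes.

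**Figure D5:**
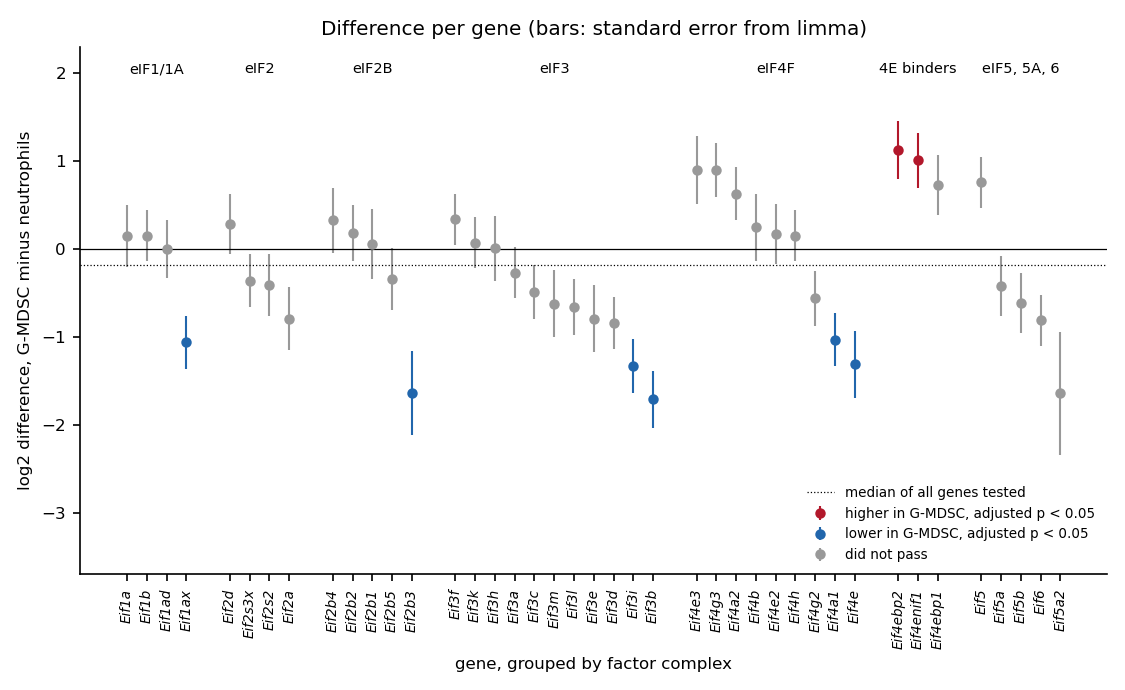
Log2 difference of G-MDSC minus neutrophils for each of the 41 tested members (vertical axis, points with limma's standard error as bars), grouped by factor complex along the horizontal axis. Of the 8 coloured members, Eif4ebp2 and Eif4enif1 lie at 1.13 and 1.01 and the other 6 between -1.71 and -1.03, and the dotted line marks the median of all genes at -0.18.

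Other genes of the translation pathway were counted from lists chosen with earlier results of these data known. Of 12 elongation and termination genes tested, 4 were lower and 1 higher, or 33.3% and 8.33%, where 8.05% of all genes were lower and 8.3% higher, and the median was -0.57. Centring arrays on their medians or dropping the intensity trend left only Eef1e1 lower. That gene, counted in this list, encodes a small protein of the aminoacyl-tRNA synthetase complex rather than an elongation or termination factor. Eef1e1 had 321 and 294 in G-MDSC arrays against 2068 and 4801 in neutrophil arrays (-3.29 ± 0.40; limma adjusted p = 0.000386). Abce1, which splits ribosomes after termination, had 403 and 375 in G-MDSC arrays against 1053 and 1216 in neutrophil arrays (-1.50 ± 0.32; limma adjusted p = 0.00917). The gene higher in G-MDSC was Eef2k, the kinase that inhibits elongation factor eEF2, with 873 and 846 in G-MDSC arrays against 223 and 422 in neutrophil arrays (1.44 ± 0.38; limma adjusted p = 0.0241). Taken as the median over its probe sets, Eef2k differed by 0.36 and did not pass (limma adjusted p = 0.626).

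Among genes for regulators that are not themselves factors, 1 for a kinase of eIF2 and 1 for a kinase of eIF4E passed as higher in G-MDSC. Of 10 genes for eIF2 kinases and phosphatase subunits 1 was higher and 1 lower. Each was 10%, where 8.3% of all genes were higher and 8.05% lower. The kinase genes Eif2ak1, Eif2ak2 and Eif2ak4 differed by 0.70, -0.57 and -0.57, and none of them passed. Eif2ak3, or PERK, the eIF2 kinase of endoplasmic reticulum stress, had 3169 and 3548 in G-MDSC arrays against 803 and 1073 in neutrophil arrays (1.83 ± 0.31; limma adjusted p = 0.00259). Ppp1r15a, or GADD34, which directs the phosphatase that reverses that mark, had 5721 and 5614 in G-MDSC arrays against 11276 and 13020 in neutrophil arrays (-1.09 ± 0.29; limma adjusted p = 0.0264). Of 14 kinases and binding proteins of the cap-dependent step 1 was higher and 0 were lower, or 7.14% higher against 8.3% of all genes. Differences were above 0 in 12 of the 14, against 5640 of all 13139 genes, and the median was 0.60. The median gene was at -0.18 here and at 0.05 with the filter at the 60th percentile, so that background shifts with the filter. The gene called was Mknk1, a kinase that phosphorylates eIF4E, with 3552 and 4743 in G-MDSC arrays against 1520 and 1274 in neutrophil arrays (1.55 ± 0.31; limma adjusted p = 0.0065, or 0.0872 with the median of its probe sets).

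Of 6 genes for poly(A)-binding proteins and their partners 1 was higher, or 16.7% against 8.3% of all genes, and 0 were lower. The gene called was Paip2, an inhibitor of poly(A)-binding protein. It had 8566 and 11092 in G-MDSC arrays against 4839 and 5053 in neutrophil arrays (0.98 ± 0.30; limma adjusted p = 0.0476). It did not pass with no filter (limma adjusted p = 0.0728) or with the median of its probe sets (0.0544). Of 12 other initiation and reinitiation genes 1 was lower, or 8.33% against 8.05% of all genes, and 0 were higher. The gene called was Denr, which acts in reinitiation with MCTS1. Its signals were 1147 and 1382 in G-MDSC arrays against 2431 and 3353 in neutrophil arrays (-1.17 ± 0.32; limma adjusted p = 0.0271). With the median of its probe sets Denr differed by -1.05 and did not pass (limma adjusted p = 0.0578). With arrays centred on their medians, the calls of Abce1, Ppp1r15a, Mknk1, Paip2 and Denr were lost. Without the intensity trend those were lost too, as were the calls of Eef2k and Eif2ak3. Without G-MDSC replicate 2 the calls of Abce1, Eef2k, Ppp1r15a, Mknk1, Paip2 and Denr were lost, and without G-MDSC replicate 1 the same calls apart from Mknk1.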

How the data were processed

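Signal intensities on a linear scale were deposited by the authors, from 100 ng of total RNA per sample; the submitters' processing notes name GCOS 1.4 and MAS5. The deposited intensity values have a mean of 500 in each array once the top and bottom 2% are left out. Precision is limited by the number of arrays, 2 in each group. Of 45101 probe sets, 64 are controls, 34945 have 1 gene symbol in the platform annotation, 932 have several and 9160 have none. Probe sets with several symbols, 6 of them naming an Eif gene, were not used. All 43 members matched RefSeq's table of GRCm38.p6 by gene ID.

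Probe sets had to exceed their array's 40th percentile in 2 or more arrays, which left 28754 probe sets and 13139 genes, each represented by its brightest set. limma 3.58.1 in R 4.3.3 (lmFit, eBayes with an intensity trend) tested log2(signal + 16), a scale that understates changes of dim genes. Functions were tested on simulated data. Promoters and figures used Python 3.11.15, pandas 2.3.3 and matplotlib 3.10.9. Values in all arrays are given for called members, the brightest gene of each complex, eIF2B subunits, 4E-binding proteins and Eif2s3y, and for up to 2 called genes per direction of each related list. Other members named with all arrays, the paralogue contrasts and those of Eif4e with its binders were chosen after their values were seen. The members and lists were chosen with earlier results of these data known. Alternatives were other pseudocounts, filters, scalings, variance models and probe set choices, a block for the replicate number, and each array left out in turn.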

Additional observations from a re-analysis of the deposited data

How the results depend on the processing

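The 2 higher and 6 lower members were unchanged with pseudocounts of 1 and 64, the filter at the 60th percentile and robust eBayes. With no filter 1 was higher and 4 lower, as also with probe sets summarised by their median, and with quantile normalization 2 were higher and 5 lower, of which 5 were among the 8 main calls: Eif4e, Eif4enif1 and Eif2b3 no longer passed and Eif5 and Eif6 did. Centring each array on its median, dropping the intensity trend, or fitting without moderation across genes left 0 higher and 0 lower. The last fit was chosen after seeing the data. Unadjusted p was under 0.05 for 4, 10 and 9 members, against 3217, 3403 and 2379 of all 13139 genes. Leaving out each array gave 0 to 7 higher and 0 to 15 lower members. Over all genes 1091 were higher and 1058 lower, against 1076 and 453 with median centring, 148 and 331 without the trend and 0 and 0 without moderation (2379 at an unadjusted p under 0.05), or 429 to 2419 and 561 to 3472 without one array. With the replicate block 6 members were higher and 9 lower, and 1699 and 1607 genes. The 8 main calls were among them, but the labels give the arrays only a shared number: the correlation of replicate 1 deviations was 0.24 over genes.

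The median gene was at -0.18, at 0.04 with quantile normalization and at 0.38 with median centring. Relative to it, the members' median of -0.09 was 0.04 with no filter and -0.21 with quantile normalization. Quantile normalization gave -0.1 for the eIF1 group, -0.01 for eIF2B, -0.79 for eIF3, 0.07 for eIF4F and -0.67 for the group of eIF5, eIF5A and eIF6, and the filter at the 60th percentile gave 0.03, 0.01, -0.67, 0.12 and -0.57, where the genes tested differ by construction. With no filter eIF4F was at 0.49 and the eIF5 group at -0.29, and with the median of probe sets eIF3 was at -0.14 and the eIF5 group at -0.31. Without one array the relative medians ran from -0.14 to 0.07 for the members, from -0.18 to 0.26 for eIF2B, from 0.16 to 0.46 for eIF4F, from -0.65 to -0.28 for the eIF5 group.

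Differences that turned sign were all of members that had not passed. With median centring these were Eif2b5 (0.22), Eif2s2 (0.14), Eif2s3x (0.2), Eif3a (0.28), Eif3c (0.07), Eif5a (0.14). With the median of probe sets these were Eif1ad (-0.24), Eif2d (-0.19), Eif4e2 (-0.15). With quantile normalization these were Eif1a (-0.03), Eif1ad (-0.1), Eif1b (0), Eif3h (-0.07), Eif3k (-0.04). Without one array the differences ran from -0.23 to 0.52 for Eif1a, from -0.17 to 0.17 for Eif1ad, from -0.23 to 0.34 for Eif2b1, from -0.15 to 0.51 for Eif2b2, from -0.07 to 0.73 for Eif2b4, from -0.51 to 0.53 for Eif3h, from -0.17 to 0.67 for Eif4b, from -0.17 to 0.51 for Eif4e2. The cause of these shifts was not tested. Signal over background limits Eif5a2, whose G-MDSC signals of 29.4 and 72.9 were near the 40th percentiles of 45.7 and 52.6.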

Other observations

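The enzymes that put hypusine on eIF5A did not pass the test, and they were named after their values were seen. Dhps, deoxyhypusine synthase, had 625 and 364 in G-MDSC arrays against 1011 and 710 in neutrophil arrays (log2 difference -0.81 ± 0.37; limma adjusted p = 0.175), and Dohh, the hydroxylase that completes the residue, had 294 and 414 in G-MDSC arrays against 627 and 789 in neutrophil arrays (-0.98 ± 0.35; limma adjusted p = 0.0851). Mtif3, a mitochondrial initiation factor, had 146 and 190 in G-MDSC arrays against 24.9 and 58.2 in neutrophil arrays, where both arrays were dim (1.73 ± 0.70; limma adjusted p = 0.121). Among the kinases upstream of the 4E-binding proteins, Akt1 had 5033 and 6872 in G-MDSC arrays against 2760 and 3315 in neutrophil arrays and did not pass (0.96 ± 0.31; limma adjusted p = 0.0576). Mtor itself had 796 and 896 in G-MDSC arrays against 725 and 504 in neutrophil arrays (0.47 ± 0.34; limma adjusted p = 0.382).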
